A study of Mus musculus with 6 samples.

Results

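Chemokines are small secreted proteins that guide leukocytes along concentration gradients, and their receptors are G protein-coupled receptors carried mostly by those leukocytes. Here the chemokine and receptor genes were followed in mouse bone marrow mesenchymal stem cells (BMSCs) with and without Grx2, glutaredoxin 2, a mitochondrial thiol-disulfide oxidoreductase encoded by Glrx2. Members were the rows of the deposited table whose symbol is that of a CC, CXC or CX3C ligand, a receptor of these ligands, an atypical chemokine receptor (Ackr) or Ccrl2. Cxcl12 was left out by this rule. It found 50 members among 22984 genes, 30 ligands and 20 receptors.

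Grx2+/+ (wild type) and Grx2-/- (knockout) cells gave 3 libraries each, all labelled as mouse bone marrow mesenchymal stem cells and as total RNA. The design text calls the cells O-BMSCs without expanding the prefix, and the labels name no agent, age, sex or strain, nor how the knockout was made. They do not say whether replicates were separate animals or cultures, so a p-value refers to the scatter among these 6 libraries alone. Levels are in FPKM, fragments per kilobase of gene scaled to library depth, and values of a group are always given in the order of replicates 1 to 3. As a check of the labels, Glrx2 was at 3.57, 3.74 and 3.54 FPKM in wild type, whereas the knockout libraries had 0.00461, 0 and 0 FPKM. The depth implied by the values was 40797879 to 41794919 reads per library.

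In marrow, stromal cells make many of the ligands, while the signalling receptors sit mainly on neutrophils, monocytes, macrophages and lymphocytes. CXC ligands with the amino acids Glu-Leu-Arg before their first cysteines, the ELR ligands, attract neutrophils through Cxcr2. The Ccl2 group attracts monocytes through Ccr2, and Cxcl9 and Cxcl10 attract activated lymphocytes through Cxcr3. Atypical receptors bind chemokines without the usual G protein signal and remove them.

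The tested members were mostly higher in knockout libraries on the ligand side and divided on the receptor side. The summed level of the 30 ligands was 150.2 to 225 FPKM in wild type and 434.9 to 510.4 FPKM in knockout, 2.55-fold higher on average. The 20 receptors summed to 34.9 to 39.0 FPKM in wild type and 29.9 to 33.3 FPKM in knockout. A small number of ligands carried most of the transcript. Ccl2, Ccl7, Cxcl5, Ccl9 and Cxcl14 made up 75.3% of the knockout family sum, and the leading 5 in wild type, with Ccl6 in the place of Cxcl14, made up 68.0%.

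Of the 50 members, 20 had a mean of at least 1 FPKM over the 6 libraries and were tested, and 30 lay under that level and are given apart. By limma on log2(FPKM + 1), two-sided, with Benjamini-Hochberg adjusted p under 0.05 over all 11083 tested genes, 13 of the 20 rose, 4 fell and 3 were not called. Across all tested genes 67.4% were called, 42.7% higher and 24.6% lower, so the members' 85.0% called must be read against a transcriptome in which most genes were called. The median log2 fold change was 0.91 for the tested members and 0.085 for all tested genes. Among the called members, 9 rose at least 2-fold on this scale, as did 6.49% of all tested genes, and 2 fell at least 2-fold, as did 3.54%. The groups did not overlap for 17 members, 13 higher and 4 lower in knockout (85.0%), against 73.1% of all tested genes (45.7% higher and 27.4% lower). A filter on the mean lets a gene pass through 1 group alone, as Cxcl10 and Ackr4 did, so these counts describe the members that passed and not the family. Log2 fold changes are knockout over wild type, given with their standard error. They were taken on log2(FPKM + 1), so they are too small for genes of low level. Means are given ± SD with n = 3 libraries per group.

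**Figure D1:**
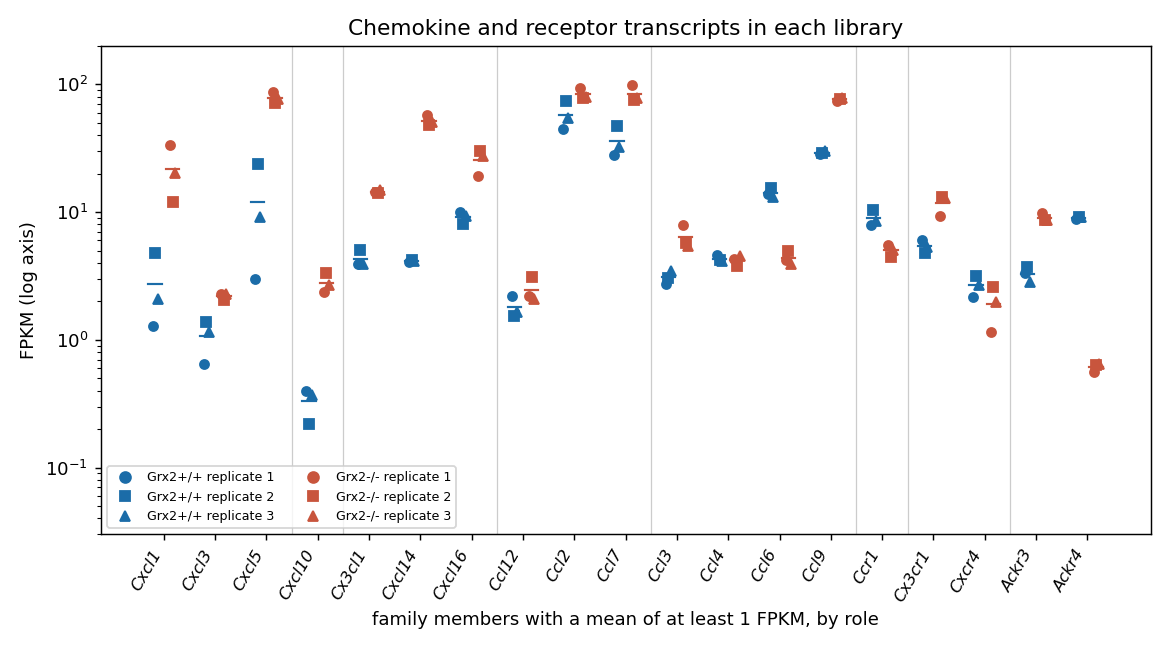
FPKM on a log axis for 19 members with a mean of at least 1 FPKM, grouped by role, with blue marks for Grx2+/+ and red marks for Grx2-/- libraries, 1 mark shape per replicate number and a short line at each group mean. Cxcl14 moved from 4.06 to 4.23 FPKM in wild type to 47.9 to 57.2 FPKM in knockout with little spread, while Cxcl5 and Cxcl1 varied widely among libraries of a group.

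Upstream sequences of ligand genes whose data are given below were taken from RefSeq windows on GRCm38.p6, matched by symbol for 37 of the 50 members (46 windows). The submitters' notes name GRCm39, so these positions belong to GRCm38.p6 and not to the counting. The neutrophil-attracting ligands Cxcl1, Cxcl2 and Cxcl3, the interferon-inducible Cxcl10, and Cxcl14, the tested ligand with the largest rise, are shown as the 250 bases before the annotated start, 5′ to 3′ on the gene's strand. Capitals mark matches to the kappaB consensus, the site bound by NF-kB, on either strand. Overlapping matches run together.
Cxcl1, chr5:90890995-90891244, plus strand: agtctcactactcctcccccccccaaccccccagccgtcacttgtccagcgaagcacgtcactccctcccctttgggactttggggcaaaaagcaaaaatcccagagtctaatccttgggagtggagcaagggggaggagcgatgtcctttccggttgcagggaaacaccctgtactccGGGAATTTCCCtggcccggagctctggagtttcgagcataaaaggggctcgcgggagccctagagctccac
Cxcl2, chr5:90903649-90903898, plus strand: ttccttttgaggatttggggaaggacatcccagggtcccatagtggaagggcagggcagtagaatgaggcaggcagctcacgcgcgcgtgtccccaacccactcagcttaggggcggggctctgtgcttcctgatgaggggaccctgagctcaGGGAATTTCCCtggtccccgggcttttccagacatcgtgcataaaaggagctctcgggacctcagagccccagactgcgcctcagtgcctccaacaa
Cxcl3, chr5:90785851-90786100, plus strand: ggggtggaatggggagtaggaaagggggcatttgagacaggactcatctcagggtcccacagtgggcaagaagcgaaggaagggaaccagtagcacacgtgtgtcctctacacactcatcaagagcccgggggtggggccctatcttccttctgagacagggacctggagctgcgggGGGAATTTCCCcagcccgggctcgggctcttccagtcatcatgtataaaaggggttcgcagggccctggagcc
Cxcl10, chr5:92348890-92349139, minus strand: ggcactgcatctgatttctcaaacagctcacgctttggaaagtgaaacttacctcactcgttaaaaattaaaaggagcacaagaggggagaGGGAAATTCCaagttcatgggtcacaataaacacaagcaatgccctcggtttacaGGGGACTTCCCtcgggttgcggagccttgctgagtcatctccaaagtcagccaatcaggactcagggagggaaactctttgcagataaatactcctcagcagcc
Cxcl14, chr13:56296552-56296801, minus strand: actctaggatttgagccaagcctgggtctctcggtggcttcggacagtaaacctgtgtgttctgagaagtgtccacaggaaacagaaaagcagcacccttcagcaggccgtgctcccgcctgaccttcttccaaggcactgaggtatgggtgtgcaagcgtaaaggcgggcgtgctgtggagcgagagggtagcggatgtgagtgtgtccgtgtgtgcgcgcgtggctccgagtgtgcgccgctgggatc

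Cxcl1, Cxcl2 and Cxcl3 hold the same 11 letters, GGGAATTTCCC, first base 71, 97 and 73 bases before the start. These letters, which include 2 overlapping consensus matches, occur in 14 of all 32851 windows (0.0426%), and 3 of those 14 are these members. Cxcl10 holds 3 consensus matches, 2 of them overlapping, starting 159, 104 and 103 bases before the start. The window of Cxcl14 has none. Over windows of the full length of 300 bases, which run from 250 before to 50 after the start, the kappaB consensus was found in 12 of the 46 member windows (26.1%) and in 8.46% of all windows. It lay in 4 of the 9 windows of members called higher, those of Ccl9, Cxcl1, Cxcl3 and Cxcl10. It also lay in those of Ccr1, which fell, and of Ackr2, which had no knockout reads. Ccl2, Ccl7 and Cxcl5 had no window. A link between these sites and the changes was not tested. Other letters searched on both strands were GAAA, any 2 bases and GAAA again, an interferon response-like element (3 member windows, 6.52%, against 3.44% of all), TGANTCA, the AP-1 site (8, 17.4%, against 7.81%), TGACNNNGC, the antioxidant response core (4, 8.70%, against 12.4%), and TATAAA (12, 26.1%, against 13.6%). A match is only a match of letters.

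All 3 tested ELR ligands rose, where 42.7% of all tested genes were called higher. Cxcl5, a ligand of Cxcr2, was at 2.99, 23.9 and 9.20 FPKM in wild type and at 87.8, 70.9 and 76.2 FPKM in knockout. The knockout libraries all lay above the wild type ones, whose highest value was 7.99 times the lowest. The means were 12.02 ± 10.7 and 78.3 ± 8.65 FPKM (log2 fold change 2.98 ± 0.55, adjusted p = 0.00169 by limma). The log2 fold change was 2.31 without wild type replicate 1 and 3.63 without wild type replicate 2.

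Cxcl1, a neutrophil attractant of stroma and macrophages, was at 1.28, 4.78 and 2.10 FPKM in wild type and at 33.7, 11.9 and 20.1 FPKM in knockout. Both groups were spread, with a highest to lowest ratio of 3.72 in wild type and 2.82 in knockout, but they did not overlap. The means were 2.72 ± 1.83 and 21.9 ± 11.0 FPKM, 8.05-fold apart (2.62 ± 0.41, adjusted p = 0.00067 by limma). Cxcl3, a close relative, had 0.650, 1.38 and 1.16 FPKM in wild type and 2.30, 2.05 and 2.28 FPKM in knockout (0.65 ± 0.13, adjusted p = 0.00225), and its groups did not overlap. The remaining ELR ligands were under the testing level. Cxcl2 had 23, 24 and 24 reads in wild type and 68, 39 and 54 in knockout, a read ratio of 2.26 with an exact 95% interval of 1.70 to 3.03. Cxcl15, known as lungkine, had 1, 1 and 0 reads in wild type and 77, 50 and 64 in knockout, a ratio of 95.1 (26.0 to 791). Such intervals cover counting error only, not the spread between libraries. Cxcl1, Cxcl2 and Cxcl3 are near relatives in sequence, and how reads were divided between them is uncertain.

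The interferon-inducible Cxcl10 rose from a low level. Wild type libraries had 0.401, 0.220 and 0.373 FPKM, from 18, 10 and 17 reads. Knockout libraries had 2.37, 3.31 and 2.68 FPKM, from 109, 150 and 121 reads. All knockout libraries lay above all wild type libraries, with means 8.41-fold apart (1.503 ± 0.10, adjusted p = 5.22e-06 by limma). With a pseudocount of 0.01 in place of 1 the log2 fold change was 3.07, and by voom on recovered reads it was 3.06. Cxcl9, induced by interferon gamma, had 0, 12 and 4 reads in wild type and 6, 4 and 9 in knockout, and the groups overlapped.

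Ligands of the remaining CXC and CX3C classes were higher in knockout in all 3 tested cases, as were 42.7% of all tested genes. Cxcl14, a ligand made by epithelia and stroma, was at 4.06, 4.23 and 4.14 FPKM in wild type and at 57.2, 47.9 and 50.4 FPKM in knockout. The spread within either group was small beside the gap, and the means were 12.5-fold apart (3.36 ± 0.064, adjusted p = 1.10e-08). Cx3cl1, fractalkine, a membrane-bound ligand that can be shed, was at 3.89, 5.06 and 3.91 FPKM in wild type and at 14.3, 14.0 and 14.8 FPKM in knockout (1.55 ± 0.084, adjusted p = 1.52e-06). Cxcl16, which is also membrane-bound and is a scavenger receptor for oxidised lipoprotein, was at 9.97, 8.05 and 9.39 FPKM in wild type and at 19.2, 29.8 and 27.4 FPKM in knockout (1.37 ± 0.15, adjusted p = 8.39e-05). Its lowest knockout value was in replicate 1. The summed macrophage markers in knockout were also lowest in replicate 1 (2518, 3416 and 3076 FPKM in replicates 1 to 3). In wild type the orders differed, since Cxcl16 was lowest in replicate 2 and the macrophage sum highest there (1547, 1683 and 1567 FPKM). The part of macrophages in the result was not tested.

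**Figure D2:**
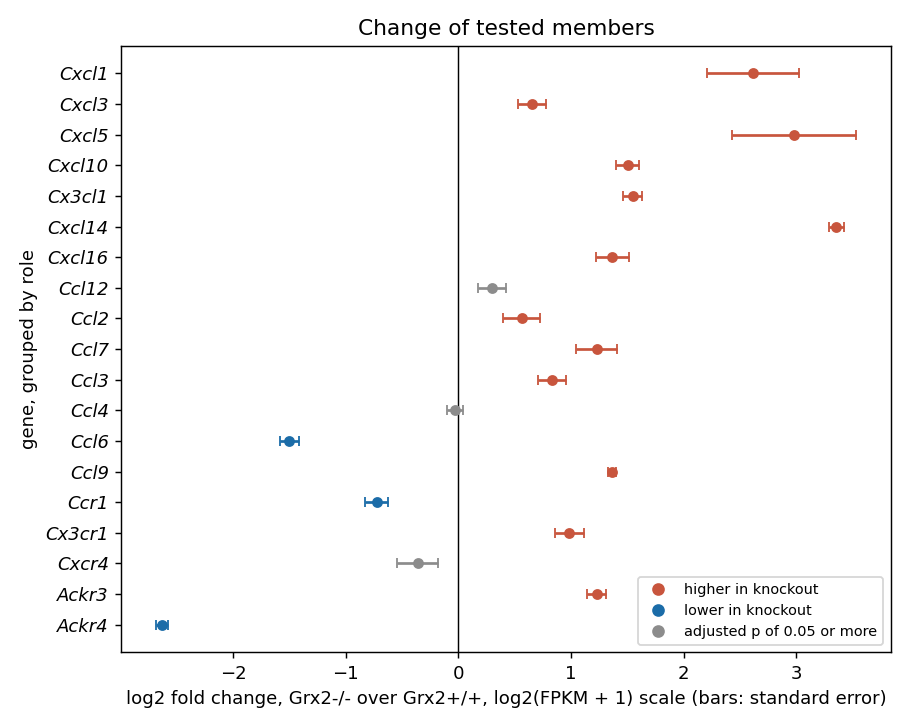
Log2 fold change of 19 tested members, Grx2-/- over Grx2+/+, on the log2(FPKM + 1) scale, with bars for the standard error from limma. Cxcl14 has the largest rise (3.36) and Ackr4 the largest fall (-2.63), and grey marks show Ccl12, Ccl4 and Cxcr4, which were not called.

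Monocyte-attracting CC ligands were the most abundant members in both groups. Ccl2, the main ligand of Ccr2, was at 44.5, 74.0 and 54.4 FPKM in wild type and at 94.2, 78.1 and 79.9 FPKM in knockout. The highest wild type library, replicate 2, lay close to the lowest knockout library. The means were 57.6 ± 15.1 and 84.1 ± 8.79 FPKM (0.56 ± 0.16, adjusted p = 0.0161 by limma), and without wild type replicate 3 the adjusted p was 0.052. With no filter on low values it was 0.0647. Ccl7, a related ligand of Ccr2 and other receptors, was at 27.9, 47.6 and 32.2 FPKM in wild type and at 98.2, 75.8 and 77.7 FPKM in knockout, a wider gap (1.23 ± 0.18, adjusted p = 0.000508). Ccl12, the third ligand of this kind in mice, was at 2.20, 1.54 and 1.67 FPKM in wild type and at 2.19, 3.08 and 2.09 FPKM in knockout, and the groups overlapped (0.30 ± 0.13, adjusted p = 0.0665). Without wild type replicate 1 Ccl12 had an adjusted p of 0.0288. Ccl8 had 1 read in each wild type library and 15, 9 and 12 in knockout, a read ratio of 11.9 (3.78 to 60.6). The eotaxins Ccl11 and Ccl24 stayed under 5 reads in every library.

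Ligands of the macrophage inflammatory protein group moved in different directions. Ccl9, made mainly by macrophages and osteoclast-lineage cells, was at 28.5, 28.8 and 30.3 FPKM in wild type and at 74.7, 77.2 and 78.2 FPKM in knockout, with means 2.63-fold apart (1.36 ± 0.037, adjusted p = 5.16e-08). Ccl6, which lies next to Ccl9 and is its close relative, went the opposite way, from 13.9, 15.5 and 13.1 FPKM to 4.23, 4.92 and 3.92 FPKM, 3.25-fold lower (-1.50 ± 0.084, adjusted p = 1.73e-06). Neither gene's groups overlapped. Ccl3, an inflammatory ligand of macrophages, was at 2.73, 3.04 and 3.48 FPKM in wild type and at 7.87, 5.69 and 5.43 FPKM in knockout (0.83 ± 0.13, adjusted p = 0.000566), again with no overlap. Ccl4, its neighbour and relative, was between 4.13 and 4.61 FPKM in wild type and between 3.75 and 4.54 FPKM in knockout (-0.034 ± 0.071, adjusted p = 0.687), and the sign turned without wild type replicate 1 or knockout replicate 2. Ccl5, which is best known from T cells, had a mean just under the testing level. It had 6, 2 and 13 reads in wild type and 45, 38 and 24 in knockout, a ratio of 5.07 (3.16 to 8.53).

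Ligands of lymphocyte homing and of epithelia were low in both groups, and none of the 8 in the table reached a mean of 1 FPKM. They summed to 1.89 to 2.05 FPKM in wild type and 2.61 to 2.63 FPKM in knockout. Ccl25, the thymic and intestinal ligand of Ccr9, had 48, 84 and 62 reads in wild type and 101, 95 and 110 in knockout (ratio 1.57, 1.31 to 1.89). Ccl20, the ligand of Ccr6, had 8, 15 and 11 reads against 20, 28 and 14, and Ccl27a, a ligand of skin-homing T cells, 51, 25 and 33 against 51, 41 and 56. Ccl17 and Ccl22, ligands of Ccr4, had at most 11 and 16 reads in a library, and Ccl28 at most 25. For these last 5 genes the groups overlapped. Ccl27a has a near-identical copy, Ccl27b, with 1 read in all, so its reads are uncertain.

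Among the CC receptors, Ccr1 fell and Ccr2 was nearly lost by reads. Ccr1, the receptor of Ccl3, Ccl6 and Ccl9 on monocytes and macrophages, was at 7.98, 10.4 and 8.48 FPKM in wild type and at 5.54, 4.43 and 5.06 FPKM in knockout (-0.73 ± 0.10, adjusted p = 0.000368). Every wild type library lay above every knockout library. Ccr2, which marks inflammatory monocytes, was at 1.54, 2.15 and 1.77 FPKM in wild type and at 0.106, 0.123 and 0.0464 FPKM in knockout. Its mean over all libraries, 0.956 FPKM, left it untested, but 297, 418 and 347 reads stood against 21, 24 and 9, a wild type to knockout ratio of 19.8 (15.0 to 26.5). Ly6c2, which with Ccr2 marks the same monocytes, was at 5.49, 21.1 and 10.6 FPKM in wild type and at most 0.105 FPKM in knockout. Both were thus lowest in wild type replicate 1 and highest in replicate 2, with replicate 3 between, an order that 9 of the 20 tested members shared. Ly6c2, which is outside the rule for named genes, was the only 1 of 13 tested macrophage and monocyte markers that fell, while 10 rose. A link between Ly6c2 and Ccr2 was not tested. Ccr3, the eotaxin receptor, went the other way, with 25, 23 and 34 reads in wild type and 86, 103 and 83 in knockout (ratio 3.30, 2.57 to 4.28). Ccr7, the homing receptor of dendritic and T cells, had 4, 6 and 10 reads in wild type and none in knockout, at least 6.70-fold lower against a floor of 3 reads over the group.

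CXC and CX3C receptors were divided. Cx3cr1, the receptor of Cx3cl1 on macrophages and monocytes, was at 6.04, 4.82 and 5.38 FPKM in wild type and at 9.33, 13.1 and 13.0 FPKM in knockout (0.99 ± 0.13, adjusted p = 0.00021), and the groups did not overlap. Cxcr4, the retention receptor of hematopoietic cells, was at 2.17, 3.18 and 2.68 FPKM in wild type and at 1.16, 2.58 and 1.98 FPKM in knockout, and the groups overlapped (-0.36 ± 0.18, adjusted p = 0.108). Cxcr4 had an adjusted p of 0.0237 without knockout replicate 2, 0.0418 with quantile normalization and 0.00617 with the replicate number as a block. Cxcr2, the neutrophil receptor of the ELR ligands, had 52, 132 and 79 reads in wild type and 1, 0 and 0 in knockout, a wild type to knockout ratio of 264 (47.0 to 10472). Its wild type order, with replicate 2 highest and replicate 1 lowest, was also that of the summed neutrophil markers (922, 2673 and 1466 FPKM). The same order was seen in 9 of the 20 tested members, and the part of neutrophils in the Cxcr2 result was not tested. By reads, 1 lymphocyte receptor was higher and 1 lower. Cxcr3, the receptor of Cxcl9 and Cxcl10, had 3, 8 and 4 reads against 47, 62 and 39 in knockout, a ratio of 9.82 (5.77 to 18.0). Cxcr6, the receptor of Cxcl16 on T and natural killer cells, had 63, 39 and 20 reads against 2, 10 and 11, a wild type to knockout ratio of 5.33 (3.39 to 8.72).

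Both tested atypical receptors were called, 1 in each direction, where 67.4% of all tested genes were called. Ackr4, which removes Ccl19, Ccl21 and Ccl25, was at 8.82, 9.07 and 9.08 FPKM in wild type and at 0.561, 0.641 and 0.643 FPKM in knockout. The replicates of each group were nearly alike, and the means were 14.6-fold apart (-2.63 ± 0.052, adjusted p = 1.13e-08). Ackr3, also called Cxcr7, a scavenger on stromal and endothelial cells, rose from 3.32, 3.74 and 2.86 FPKM to 9.84, 8.71 and 8.61 FPKM (1.23 ± 0.085, adjusted p = 5.90e-06). Ackr2, the scavenger of inflammatory CC ligands found on lymphatic endothelium, had 49, 28 and 45 reads in wild type and none in knockout, at least 40.8-fold lower against the same floor. Ccrl2, which binds chemerin, had 15, 19 and 15 reads against 21, 10 and 9, and the groups overlapped.

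**Figure D3:**
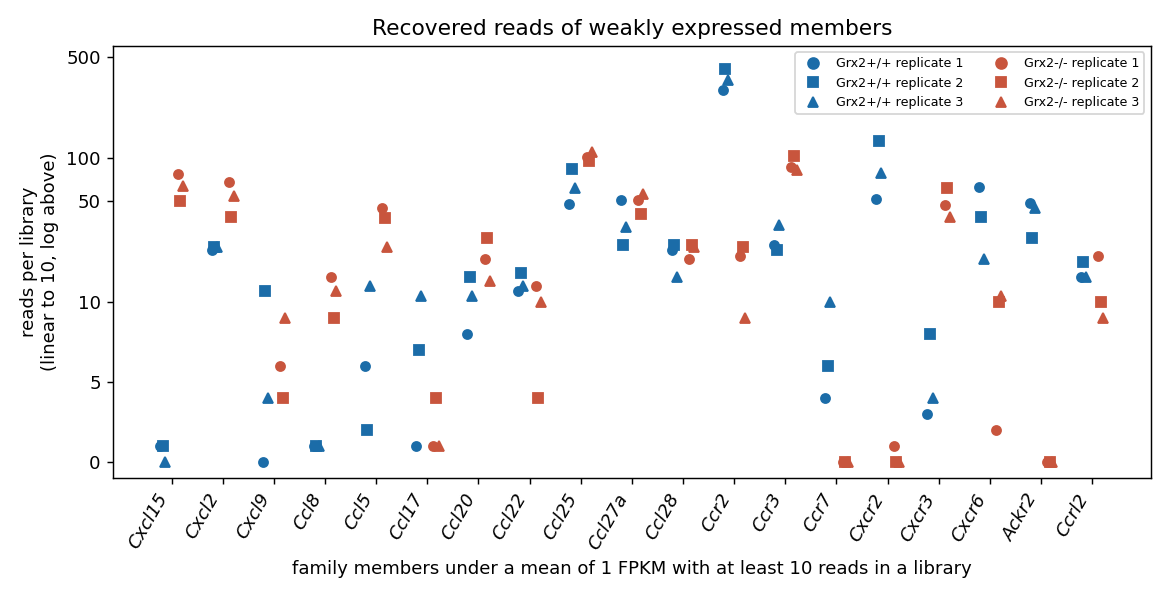
Reads per library, on an axis linear to 10 and logarithmic above, for the 19 members under a mean of 1 FPKM that had at least 10 reads in some library, in blue for Grx2+/+ and red for Grx2-/-. Cxcr2 and Ackr2 had at least 28 reads in each wild type library and at most 1 in any knockout library, and Ccr2 had 297 to 418 reads against 9 to 24. Cxcl15, Ccl8 and Cxcr3 had more reads in each knockout library than in any wild type library.

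Of the 30 members under 1 FPKM, 19 had at least 10 reads in a library and 11 had fewer in every library. Those 11 were Ccl11, Ccl19, Ccl24, Ccl27b, Ccr6, Ccr8, Ccr9, Ccr10, Cxcl17, Cxcr1 and Cxcr5. The groups did not overlap for 13 of the 30, 7 higher and 6 lower in knockout (43.3%), where 28.0% of all genes under 1 FPKM did not overlap (13.3% higher and 14.7% lower). The lower ones include Ccl24, with 2, 1 and 2 reads against 1, 0 and 0, which differs by depth alone at its nearest libraries. In a fit with no filter on low values, in which 39.6% of all genes were called (23.9% higher and 15.7% lower), 7 of the 30 were called higher, namely Ccl5, Ccl8, Ccl25, Ccr3, Cxcl2, Cxcl15 and Cxcr3. Another 5 were called lower, namely Ackr2, Ccr2, Ccr7, Cxcr2 and Cxcr6. The other 18 were not called.

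Set side by side, ligands and their main receptors did not move as a unit. Cx3cl1 and its receptor Cx3cr1 were both higher in knockout, and so were Cxcl10 and Cxcr3, the latter by reads only. Cxcl1 and Cxcl5 rose while Cxcr2 was at 1 read in 3 knockout libraries. Ccl2 and Ccl7 rose while Ccr2 had 54 reads in knockout against 1062 in wild type. Cxcl16 rose while Cxcr6 had 23 reads against 122. The only tested ligand of Ccr1 that fell with it was Ccl6. These are levels in a bulk sample, where fewer cells of a type and less RNA per cell cannot be told apart.

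Genes that lie together on a chromosome did not always move together. In a RefSeq table of GRCm38.p6, with at most 300 kb between neighbouring starts, Cxcl5, Cxcl3, Cxcl15, Cxcl1 and Cxcl2 form a run in which the 3 tested genes rose and Cxcl2 and Cxcl15 had more reads in each knockout library than in any wild type library. The run Ccl2, Ccl7, Ccl11, Ccl12 and Ccl8 had 2 tested genes that rose and 1 that was not called. The run Ccl5, Ccl9, Ccl6, Ccl3 and Ccl4 held 2 that rose, 1 that fell and 1 that was not called. Of all tested genes, 42.7% were called higher and 24.6% lower. Of the neighbouring receptor genes Cxcr6, Ccr1, Ccr3 and Ccr2, Ccr1 fell and Cxcr6 and Ccr2 were lower by reads, while Ccr3 was higher by reads.

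Libraries of a group differed for the same genes. In wild type, replicate 2 was highest and replicate 1 lowest for Cxcl1, Cxcl3, Cxcl5, Ccl2, Ccl7, Cxcl14 and Ccr1, and in knockout replicate 1 was highest and replicate 2 lowest for these 7. For Cxcl14 the wild type range was narrow, with a highest to lowest ratio of 1.04. Another 7 tested members, among them Cxcl16, Cx3cr1, Cxcr4 and Cxcl10, were lowest in knockout replicate 1. Over all genes the libraries least like the others of their genotype were wild type replicate 2 and knockout replicate 1. Without both, 13 members were called higher and 4 lower, where 69.4% of all tested genes were called (4909 higher and 2758 lower).

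**Figure D4:**
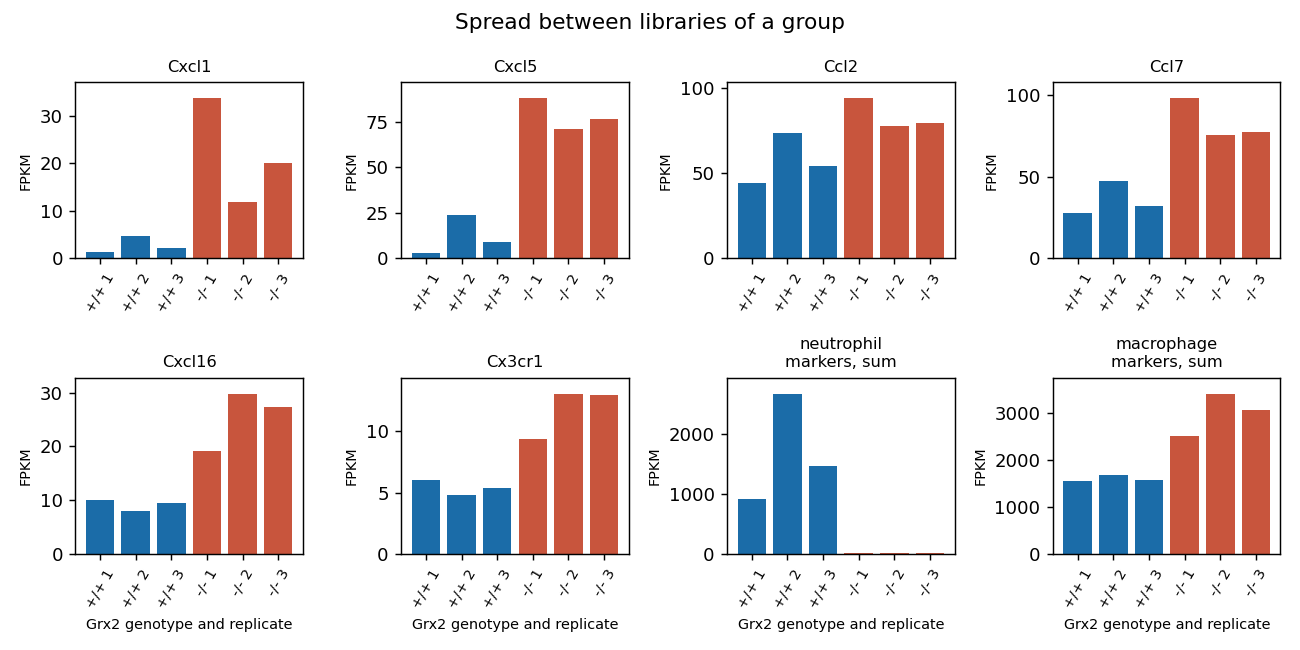
FPKM in each library, as bars from 0, for 6 members and for the summed neutrophil and macrophage markers, in blue for Grx2+/+ and red for Grx2-/-. Cxcl1, Cxcl5, Ccl2 and Ccl7 share their order of libraries within each group, and the neutrophil sum is 922 to 2673 FPKM in wild type and 6.32 to 8.26 FPKM in knockout.

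Markers of the cells that carry these receptors also differed between the groups, and their counts stand beside 42.7% of all tested genes called higher and 24.6% lower. All 9 tested neutrophil markers fell, and Ly6g and Retnlg were at 0 in every knockout library. S100a9, Ltf, Ngp, Camp, Mpo and Elane had knockout means under 1 FPKM and passed the testing filter through wild type alone. So did Ly6c2 and the endothelial markers Pecam1, Cdh5, Emcn and Kdr. Such counts describe the markers that passed and not the cell types. Of 13 tested macrophage and monocyte markers, 10 rose, 1 fell (Ly6c2) and 2 were not called, with a sum of 1547 to 1683 FPKM in wild type and 2518 to 3416 FPKM in knockout, most of it Lyz2. Adgre1, the macrophage marker F4/80, had the largest log2 rise of the list (2.25), from 24.7 ± 0.614 to 122 ± 13.3 FPKM. It is outside the rule for named genes. The 2 not called were Mertk (2.46 and 2.46 FPKM) and C1qa (48.1 and 40.2 FPKM in wild type and knockout). Cd163, under the testing level, had 7, 6 and 5 reads in wild type and was at 0 in knockout. The 3 general leukocyte markers all rose (66.9 to 79.6 FPKM in wild type and 175 to 219 FPKM in knockout). Of 5 tested endothelial markers 4 fell and 1 was not called (18.5 to 21.6 and 3.04 to 3.28 FPKM). Under the testing level, Cldn5 was at 0 in knockout. Flt1, also under it, was lower, with 647, 575 and 662 reads in wild type and 136, 143 and 98 in knockout. Tek, under it too, went the other way, with 57, 51 and 53 reads in wild type and 114, 131 and 126 in knockout.

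T and natural killer cell markers were all under the testing level, at 0.990 to 1.36 FPKM summed in wild type and 0.0489 to 0.179 FPKM in knockout, with Cd3d, Cd3g and Cd4 at 0 in knockout. Both tested markers of eosinophils, basophils and mast cells fell (14.6 to 17.1 and 3.47 to 3.55 FPKM), with Epx, Cpa3 and Ms4a2 at 0 in knockout. Of the tested ones, Prg2 had a knockout mean of 0.0172 FPKM and passed the filter through wild type alone. Of the B cell markers only Ebf1, which stroma also expresses, was tested, and it rose, with Ms4a1 at 0 in knockout (2.68 to 3.13 and 3.08 to 3.34 FPKM). Dendritic cell markers summed to 1.13 to 1.45 and 0.640 to 0.763 FPKM and erythroid ones to 0.132 to 0.446 and 0.0162 to 0.0897 FPKM, none of them tested. Among the dendritic markers Xcr1 was at 0 in wild type and Clec9a, Siglech and Cd209a in knockout, and among the erythroid ones Hba-a2 was at 0 in wild type and Hbb-bs, Hbb-bt and Hba-a1 in knockout. Of 3 tested megakaryocyte and platelet markers 1 rose and 2 fell (122 to 162 and 147 to 182 FPKM), with Gp9 at 0 in knockout. Itga2b, among those that fell, also passed the filter through wild type alone. All 12 mesenchymal markers were above the testing level, and 6 rose and 6 fell (6886 to 7865 and 4517 to 5224 FPKM). The part of these cells in the chemokine and receptor results was not tested.

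Genes upstream of chemokine transcription were mostly higher in knockout. Of 16 tested cytokines and receptors of this list, 14 rose, 0 fell and 2 were not called, beside 42.7% and 24.6% of all tested genes, and the list median was 0.51. The 14 include Il1rn, which encodes the interleukin 1 receptor antagonist and not an inducer. It was at 44.2 ± 3.72 FPKM in wild type and 49.2 ± 1.18 FPKM in knockout (adjusted p = 0.0487 by limma). With no filter or with quantile normalization 2 members were called lower. Tnfrsf1a, the main receptor of tumor necrosis factor, was at 61.9 ± 1.87 FPKM in wild type and 112 ± 3.37 FPKM in knockout (0.85 ± 0.037, adjusted p = 4.49e-07). Il1rl1, the receptor of interleukin 33, rose from 4.42 ± 1.64 to 63.7 ± 7.26 FPKM. Tlr2, a receptor of bacterial lipoproteins, rose from 5.33 ± 0.379 to 13.1 ± 0.739 FPKM. Of the cytokines themselves, Tnf rose from 1.49 ± 0.116 to 4.42 ± 0.343 FPKM. Il1a and Il1b, which encode interleukin 1, were under the testing level and lower in knockout without overlap. Il1a had 8, 5 and 12 reads in wild type and 0, 0 and 1 in knockout. Il1b had 11, 12 and 13 reads against 2, 2 and 0. Il1a, Il1b and Il1rn are outside the rule for named genes and were chosen after their values were seen.

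Of 49 tested genes that transmit the signal of chemokine receptors, 26 rose, 10 fell and 13 were not called (median 0.24), not far from the 42.7% higher and 24.6% lower of all tested genes, and under either of median-of-ratios and quantile scaling 25 rose and 16 fell. Pik3r5, the regulatory subunit of phosphoinositide 3-kinase gamma, was at 2.97 ± 0.318 FPKM in wild type and 21.5 ± 1.39 FPKM in knockout (2.51 ± 0.072, adjusted p = 6.49e-08). Vav1 (5.51 to 16.4 FPKM) and Dock2 (4.71 to 14.0 FPKM), exchange factors for Rac in leukocytes, and Gng12, a G protein gamma subunit (26.3 to 53.6 FPKM), rose as well.

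Of 15 tested genes for other chemoattractants and their receptors, 8 rose, 6 fell and 1 was not called (median 0.17), beside the same 42.7% higher and 24.6% lower. The complement peptide receptors C3ar1 (28.8 to 59.2 FPKM) and C5ar1 (19.2 to 48.4 FPKM) and Gpr183, the receptor of oxysterols (1.14 to 4.31 FPKM), rose, and S1pr1, the receptor of sphingosine 1-phosphate, fell from 25.3 to 11.0 FPKM. Of 18 tested genes for the processing and surface presentation of chemokines, 4 rose, 10 fell and 4 were not called (median -0.62), where 42.7% of all tested genes rose and 24.6% fell. Sdc4, a heparan sulfate proteoglycan that binds chemokines, was at 40.03 ± 4.17 FPKM in wild type and 114 ± 1.36 FPKM in knockout (1.49 ± 0.065, adjusted p = 4.71e-07). Ext1, an enzyme that builds heparan sulfate, fell from 69.8 to 35.4 FPKM, and Mmp2, a protease that cuts chemokines, from 262 to 124 FPKM. Elane, neutrophil elastase and itself a neutrophil marker, fell from 13.5 ± 4.86 to 0.00883 ± 0.0153 FPKM. Among the genes of both lists that fell, Elane, Mmp9, Ctsg, Ltb4r1 and Cmklr1 passed the testing filter through wild type alone.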

How the data were processed

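Total RNA of 6 samples was sequenced, 3 per genotype, and the genotype label set the groups. The submitters' processing notes name the tools HISAT2, HTSeq and R 3.2.0 and the build GRCm39. Which annotation, filters and strand setting they used is not given in the sources used here, so reads of overlapping genes cannot be told apart. The authors deposited FPKM values, a unit scaled by gene length and by library depth, with no composition factor. Whole reads were recovered from the steps of the values for 22982 genes (99.99%, tolerance 1e-06 reads), taking the smallest whole gene length that gave whole reads, so counts of 1 read rest on that length.

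limma 3.58.1 (R 4.3.3; lmFit, then eBayes with trend) was run on log2(FPKM + 1) of the 11083 genes with a mean of at least 1 FPKM, two-sided, Benjamini-Hochberg adjusted over all tested genes, threshold 0.05. FPKM are not counts, so no count model was used; voom on recovered reads was an alternative. Tested on data simulated for 10713 genes of this comparison, it found 39 of the 47 altered by 1.25-fold and all 49 altered by 2-fold, beside 19 false calls. Intervals of read ratios are exact conditional binomial intervals at 95%, and the floor is 3 reads over a group. Figures were drawn with matplotlib 3.10.9.

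The members and gene lists were chosen with earlier results of these data known. Members of at least 1 FPKM are named with their values, except 1 that is counted but not reported here, and lower members with at least 10 reads in a library with their reads; up to 4 called genes with the smallest p are named from each of the pathway lists. Protein sequences were not used here. Alternatives were pseudocounts of 0.1 and 0.01, no filter, a mean of at least 5 FPKM, median-of-ratios scaling, quantile normalization, no trend, robust estimation (statmod 1.5.0), a replicate block, voom, a 2-fold minimum, adjusted p under 0.01, each library left out, and wild type replicate 2 and knockout replicate 1 left out together.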

Additional observations from a re-analysis of the deposited data

How the results depend on the processing

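Of the 20 tested members, 11 kept their direction and their side of the threshold under every one of the 19 alternatives that tested them, 8 changed side under at least 1, and Ccl4, which was not called, changed sign without wild type replicate 1 (0.0037) and without knockout replicate 2 (0.029), its lowest value with 1 library left out being -0.081 (without knockout replicate 3). With 1 library left out, 13 to 15 members were called higher and 4 to 6 lower, where 59.1% to 68.1% of all tested genes were called. With no filter 9 were lower, with a mean of at least 5 FPKM 2, and with a 2-fold minimum 2. Of all genes, 3614 of 22984, 1883 of 7432 and 392 of 11083 were lower under these settings in turn. With the 2-fold minimum the pathway lists had 1 higher and 5 lower (processing and presentation), 4 higher and 2 lower (other chemoattractants), 10 higher and 1 lower (signal transduction) and 4 higher (upstream cytokines). Signal transduction had 16 lower with either scaling, and upstream cytokines 2 lower with no filter or quantile normalization. All genes were called 4737 higher and 2728 lower as reported, 3786 and 3575 with median-of-ratios scaling, and 3413 and 3945 with quantile normalization. Quantile normalization moved the median of all genes from 0.085 to -0.026, while that of tested members went from 0.91 to 0.79 and 13 members were called higher and 5 lower. Deviations of same-numbered libraries of the 2 groups correlated at 0.107, 0.124 and 0.0199 for numbers 1 to 3. Wild type replicates 1 and 2 correlated best with the knockout library of their number, and wild type replicate 3 with knockout replicate 1 (0.0598). The labels give only a number, and such weak correlations cannot decide whether same-numbered libraries were handled together. With the replicate block 13 members were called higher and 5 lower, Cxcr4 being the added one, where 68.2% of all tested genes were called. For members under 1 FPKM depth is the limit, since a few reads decide their values.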

Other observations

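Chemokine genes whose symbols fall outside the family names were also in the table, and some of the values here were chosen after they were seen. Pf4, the CXC ligand platelet factor 4, was at 99.6, 142 and 106 FPKM in wild type, whereas knockout libraries had 133, 168 and 157 FPKM. The groups overlapped, although the limma adjusted p was 0.0288 (log2 fold change 0.40 ± 0.14). Ppbp, the precursor of another platelet CXC ligand, was at 18.2, 15.6 and 18.1 FPKM in wild type and at 13.1, 12.9 and 14.8 FPKM in knockout (-0.33 ± 0.072, adjusted p = 0.00423 by limma). Pf4 was thus above every member of the family in wild type, while Itga2b, a megakaryocyte marker on the same list, fell from 3.01 to 0.665 FPKM. Xcl1, the C ligand lymphotactin, had 1 read in all 6 libraries. Rarres2, which encodes chemerin, was at 0.276, 1.75 and 1.01 FPKM in wild type and at 3.61, 3.10 and 3.90 FPKM in knockout (1.24 ± 0.24, adjusted p = 0.00225 by limma). Its signalling receptor Cmklr1 went the other way, from 2.31, 2.06 and 1.93 FPKM to 0.884, 1.06 and 0.998 FPKM (-0.64 ± 0.069, adjusted p = 7.60e-05).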
